A study of Mus musculus with 2 samples.

Results

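The Mef2 genes Mef2a, Mef2b, Mef2c and Mef2d encode the 4 myocyte enhancer factors of the mouse, and they were taken by symbol from the 21938 protein-coding genes of the annotation used here. Open chromatin was measured at them by DNase-seq, an assay that sequences the ends left by DNase I where DNA is exposed to the enzyme. There was 1 group of 2 libraries (replicate 1 and replicate 2), made from nuclei of frontal cortex of female B6CASTF1/J mice aged 25 days, with no treatment, no engineered allele named in the labels and no second condition. These mice are the F1 cross of C57BL/6J with the wild-derived strain CAST/EiJ, and the alleles were not separated here. Both libraries carry the same donor identifier, so the spread between them (SD, n = 2) need not be a spread between animals, and no test between conditions was possible.

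MEF2 proteins belong to the MADS-box family, and they bind as dimers to an A/T-rich DNA element through a MADS box and an adjoining MEF2 domain. Class IIa histone deacetylases hold them in a repressive state, and calcium signals acting through calcineurin and other enzymes turn them into activators. The family was first known from muscle. In the cortex Mef2c is a well-known regulator of excitatory neurons and of synapse number, Mef2a and Mef2d are broadly used in neurons, and Mef2b is best known from B lymphocytes. All coordinates are on mm10 (GRCm38), and printed sequences are those of the reference genome, not of these animals.

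The deposited peak lists held 85603 peaks in replicate 1 and 87847 in replicate 2, and the footprint lists held 214072 and 189951 short protected stretches. The value of a peak is the authors' read-depth normalised signal, and its median over all peaks was 0.627 in replicate 1 and 0.679 in replicate 2. Sequencing depth is not given in the sources used here. The tissue label was set beside marker genes, of which those with a peak within 1 kb of an annotated start in both libraries were 6 of 6 for excitatory neurons, 3 of 5 for inhibitory neurons, 2 of 5 for astrocytes and 3 of 5 for oligodendrocytes. The counts were 1 of 5 for microglia, 1 of 5 for endothelium and 2 of 5 for striated muscle, where 61.5% of all protein-coding genes had such a peak. In bulk tissue, a region that is weakly open in all cells and a region that is open in few cells cannot be told apart.

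Each of the 4 Mef2 genes carried a promoter peak in replicate 1 and in replicate 2, where 61.5% of all protein-coding genes did. A promoter peak here is one that overlaps the 1 kb on either side of any annotated transcription start, and the promoter value is that of the strongest such peak. Mef2a had promoter values of 3.96 in replicate 1 and 4.07 in replicate 2, a mean of 4.01 ± 0.0820 (SD, n = 2). Mef2b had 3.80 and 5.54, with a mean of 4.67 ± 1.23. Mef2d had 2.75 and 3.51, with a mean of 3.13 ± 0.537. The 3 genes lay above 2.34, the median of the 13489 genes with such a peak in each library. Mef2a stood at percentile 80.6 of those genes, Mef2b at 88.1 and Mef2d at 66.3. Mef2c, by the same measure, stood below them at 1.19 and 1.23, with a mean of 1.21 ± 0.0291, at percentile 23.1. With 2.5 kb on either side of a start in place of 1 kb its value was 2.73, that of an intron region 2093 bp from its last start cluster. The median of 2.34 is for 1 kb, and none was computed for 2.5 kb.

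In order of mean promoter value the genes ran Mef2b, Mef2a, Mef2d and Mef2c. The order of Mef2b and Mef2a was not stable, since Mef2a was the higher of them in replicate 1 and Mef2b in replicate 2. Mef2d lay below both in each library, and its values did not overlap theirs. By this measure Mef2c lay below the other members in each library by more than the spread of any of them. For Mef2b this rests on a peak that also lies within 1 kb of starts of Borcs8 and Rfxank. The inner Mef2b start, annotated for 4 of its transcripts, had 0.627 and 0.885, below Mef2c in each library. All 4 genes were also called at their promoters in each library on the shorter, stricter list of the authors, where 55.6% of protein-coding genes were, with the same values. The plot of peak values at each start shows where within each gene these values arose.

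**Figure D1:**
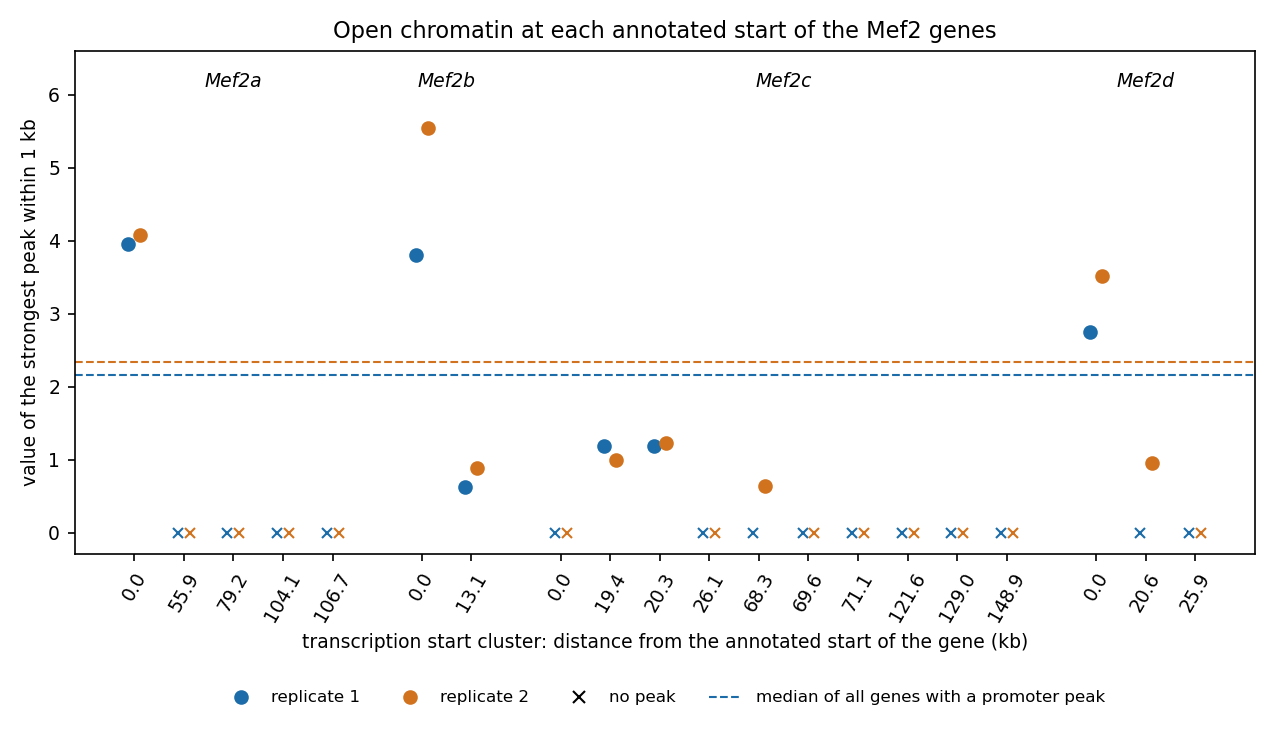
Value of the strongest peak within 1 kb of each cluster of annotated transcription starts (y axis, normalised signal), by distance of the cluster from the annotated start of the gene (x axis, kb). Blue points are replicate 1 and orange points replicate 2, crosses at 0 mark clusters with no peak, and dashed lines are the medians of all genes that had a promoter peak in that library (2.16 and 2.34). Of 20 clusters 6 had a peak in both libraries, and the first cluster of Mef2c had none.

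The annotated starts fell into 20 clusters when starts within 500 bp of the next were joined, of which 6 were open in both libraries, 2 had a peak only in replicate 2 and 12 had none. Of the 6, the 2 of Mef2c were not separate, since both took their replicate 1 value of 1.19 from the region 83524201-83524940. The first of these 2 lay 248 bp from the nearest region called in both libraries. The 12 clusters without a peak also had no position within 1 kb with a listed false discovery rate of the cut rate, a list that runs up to 0.05. The 6 clusters open in both libraries held 23 to 117 CpG dinucleotides in the surrounding 1 kb, and the other clusters held 4 to 23. The CpG counts of the 5′ ends themselves were 117 for Mef2a, 50 for Mef2b, 13 for Mef2c and 99 for Mef2d, against a median of 41 over all protein-coding genes.

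Mef2a (ENSMUSG00000030557.17) spans 142 kb on the minus strand of chromosome 7, from 67231163 to 67372858, with 12 transcripts. Its promoter peak, at 67372781-67373200, covered the annotated start, and this start cluster was the only one of the gene with a peak. The other 4 start clusters, 55.9 to 107 kb into the gene, had no peak in either library. A weaker region 1.2 kb upstream, 67373829-67374191, was called in both libraries with 0.503 and 0.468. The promoter region held 7 footprints called in both libraries, where a shared footprint is the stretch covered by the overlapping calls of either. Those that fall in the 250 bases before the start are shown in capitals, because this is the Mef2 promoter with the most shared footprints (RefSeq promoter table, minus strand, chr7:67372859-67373108).
Mef2a promoter: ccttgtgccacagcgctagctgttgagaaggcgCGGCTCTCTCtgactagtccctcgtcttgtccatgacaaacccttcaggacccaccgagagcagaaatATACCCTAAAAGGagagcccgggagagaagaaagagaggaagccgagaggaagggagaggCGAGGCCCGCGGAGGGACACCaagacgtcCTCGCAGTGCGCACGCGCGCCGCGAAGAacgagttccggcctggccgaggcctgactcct

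The capital stretch nearest the start, CTCGCAGTGCGCACGCGCGCCGCGAAGA, held the letters TGCGCA of the NRF1 motif. Counted on both strands, those letters occurred in 2.06% of all 86677 footprints called in both libraries and in 7.76% of the 32851 RefSeq promoter entries of mouse genes. A further 2 footprints of this promoter, outside the printed bases, held GGGCGG, the core of the SP/KLF motif, which shares GGGCG with the EGR motif GTGGGCG and was found in 11.9% of all shared footprints. A letter match is a description and does not show that a factor was bound.

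Mef2b (ENSMUSG00000079033.10) spans 27.8 kb on the plus strand of chromosome 8, from 70139711 to 70167488, with 5 transcripts. Its high promoter value belongs to a promoter that it shares. The peak, at 70139101-70139480, lay upstream of the single transcript that starts at 70139711, and also within 1 kb of the starts of Borcs8, a subunit gene of the lysosome-positioning complex BORC, and Rfxank, a subunit gene of the factor RFX that controls MHC class II genes. The facing starts of Rfxank and Borcs8 were 344 bp apart. The other 4 transcripts start at 70152778-70152781, 13.1 kb further on, and there the values were 0.627 in replicate 1 and 0.885 in replicate 2. That mean of 0.756 ± 0.182 would stand at percentile 10.5 of promoter values. Those values take the strongest start of each gene, so a single start tends to stand low among them. Thus the value of 4.67 could not be assigned to Mef2b over its neighbours, and the start annotated for most of its transcripts was the weakest of the family among those open in both libraries.

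Both Mef2b promoters are printed with the footprints called in both libraries in capitals. The first is 300 bases of the shared promoter ahead of the first Borcs8 start (plus strand, chr8:70139199-70139498). The second is the RefSeq promoter entry before the inner start (plus strand, chr8:70152511-70152760).
Mef2b shared promoter: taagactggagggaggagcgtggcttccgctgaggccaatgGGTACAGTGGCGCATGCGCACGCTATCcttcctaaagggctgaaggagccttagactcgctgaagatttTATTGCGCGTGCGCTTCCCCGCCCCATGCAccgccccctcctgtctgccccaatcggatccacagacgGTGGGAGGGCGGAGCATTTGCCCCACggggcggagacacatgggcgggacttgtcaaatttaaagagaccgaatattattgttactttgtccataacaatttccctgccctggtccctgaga
Mef2b inner promoter: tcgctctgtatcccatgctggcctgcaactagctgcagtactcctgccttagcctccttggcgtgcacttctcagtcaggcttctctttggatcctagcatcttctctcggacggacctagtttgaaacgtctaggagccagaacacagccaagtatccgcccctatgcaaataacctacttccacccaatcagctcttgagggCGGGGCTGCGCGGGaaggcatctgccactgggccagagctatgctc

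In the shared promoter 1 printed footprint held TGCGCA and 2 held GGGCGG, and in the inner promoter the only shared footprint held none of the 16 motifs searched as whole letters. A second region of the shared promoter, 70139581-70139760, covered the outer Mef2b start and was called in replicate 2 only, with 1.59. Replicate 1 had no peak in this stretch on its list, but it held 1 footprint there, and its lowest false discovery rate in the cut-rate table was 7.40e-15, where replicate 2 had 5.58e-10.

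Mef2c (ENSMUSG00000005583.16) spans 163 kb on the plus strand of chromosome 13, from 83504034 to 83667080, and has 31 transcripts in 10 start clusters, the most of the family. The cluster at the annotated 5′ end, 83504034-83504240, starts 6 coding transcripts and had no peak in either library. The nearest region called in both libraries was 13801 bp away. The open promoter was internal. Of the clusters at 83523473 and at 83524291-83524920, 19.4 and 20.3 kb into the gene, the second starts 10 transcripts. The region 83524201-83524940 covered it with values of 1.19 and 1.23, and the region 83523721-83523961 between the clusters had 0.740 and 0.942. A cluster 68.3 kb into the gene had a peak of 0.640 in replicate 2 only, while the cluster at 26.1 kb and those beyond 68.3 kb had none in either.

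The promoter at the 5′ end and the footprints at the open promoter are set side by side, since one has no peak and the other has peaks in both libraries. The first is the RefSeq promoter entry (plus strand, chr13:83503784-83504033), with no footprint and therefore no capitals. The 3 footprints shared by the libraries at the open promoter follow in capitals, and they lie at the region 83523721-83523961. The region 83524201-83524940, which gives the promoter value, had 6 footprints in replicate 1 and 5 in replicate 2 but 0 shared (plus strand, chr13:83523712-83523740, chr13:83523765-83523793 and chr13:83523881-83523909).
Mef2c 5′ end: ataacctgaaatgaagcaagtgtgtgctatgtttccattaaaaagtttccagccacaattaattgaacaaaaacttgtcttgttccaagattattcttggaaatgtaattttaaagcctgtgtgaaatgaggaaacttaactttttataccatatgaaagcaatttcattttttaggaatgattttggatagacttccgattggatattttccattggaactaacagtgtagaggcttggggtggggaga
Mef2c open promoter a: gagtAACGGAGGCGCGCGCGGACCGgagc
Mef2c open promoter b: ctaaagggggCGGGGGGGGggggagtcac
Mef2c open promoter c: ccccgggGGAGCGAGCGCGCAGgagccta

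The sequence at the 5′ end without a peak had a GC content of 33.6% and 1 CpG in its 250 bases. Of the other RefSeq entries of Mef2c, that beside the open promoter (83523406-83523655) had 44.8% GC with 6 CpG, and that at a start cluster without a peak (83573357-83573606) had 49.6% with 4. The entry beside the open promoter thus lay between the closed entries in GC content. It ends before the open region at 83523721 and holds no shared footprint, so it does not describe the open sequence itself. Over 1 kb, the Mef2c start clusters open in both libraries held 36 and 46 CpG, and the others 11 to 16. The entries of the other members, all at open starts, had 61.6% with 21 CpG at Mef2a, 73.2% with 19 at Mef2d and 56% with 9 at the inner Mef2b start. The footprints of the open Mef2c promoter lay in stretches of 75.9 to 79.3% GC and held none of the 16 motifs as whole letters.

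Mef2d (ENSMUSG00000001419.17) spans 29.7 kb on the plus strand of chromosome 3, from 88142372 to 88172086, with 7 transcripts. Its first start cluster, with 5 of them, was the only one open in both libraries. The main peak, 88142121-88142480, had values of 2.75 and 3.51. It was followed inside the gene by 88142641-88143460 with 0.915 and 0.834 and by 88143501-88143780 with 1.20 and 0.862, which were also within the promoter window. A start 20.6 kb into the gene had a peak of 0.954 in replicate 2 only, and one 25.9 kb in had none. The promoter entry is printed with its 2 footprints shared by the libraries in capitals (RefSeq promoter table, plus strand, chr3:88142122-88142371), since its longer footprint is the only one at a Mef2 gene's own promoter with matches to more than one motif.
Mef2d promoter: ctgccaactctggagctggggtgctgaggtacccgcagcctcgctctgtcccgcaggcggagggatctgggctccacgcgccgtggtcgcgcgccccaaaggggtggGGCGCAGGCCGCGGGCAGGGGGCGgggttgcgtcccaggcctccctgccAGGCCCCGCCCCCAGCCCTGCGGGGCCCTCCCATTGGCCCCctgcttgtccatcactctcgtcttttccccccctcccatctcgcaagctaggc

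The longer capital stretch held both the SP/KLF letters GGGCGG (on the other strand) and ATTGG, the NFY motif on its CCAAT box. ATTGG, which shares TTGG with the NFI motif TTGGCA, occurred in 2.17% of all footprints called in both libraries and in 37.4% of RefSeq promoter entries.

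Across the gene bodies and 50 kb on either side, 81 regions were called at the Mef2 genes, and 50 of them (61.7%) were shared by the libraries, while 17 were seen in replicate 1 alone and 14 in replicate 2 alone. Over the genome 53.6% of merged regions were called in both. The share at single genes was 42.9% at Mef2a (9 of 21), 76.2% at Mef2b (16 of 21), 54.5% at Mef2c (12 of 22) and 76.5% at Mef2d (13 of 17). Of the 50 shared regions 26 (52%) overlapped a peak of both stricter lists, where 59.5% of all shared regions did. The 31 regions of a single library had a median value of 0.611, against a median of 0.976 for the mean values of the shared ones.

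**Figure D2:**
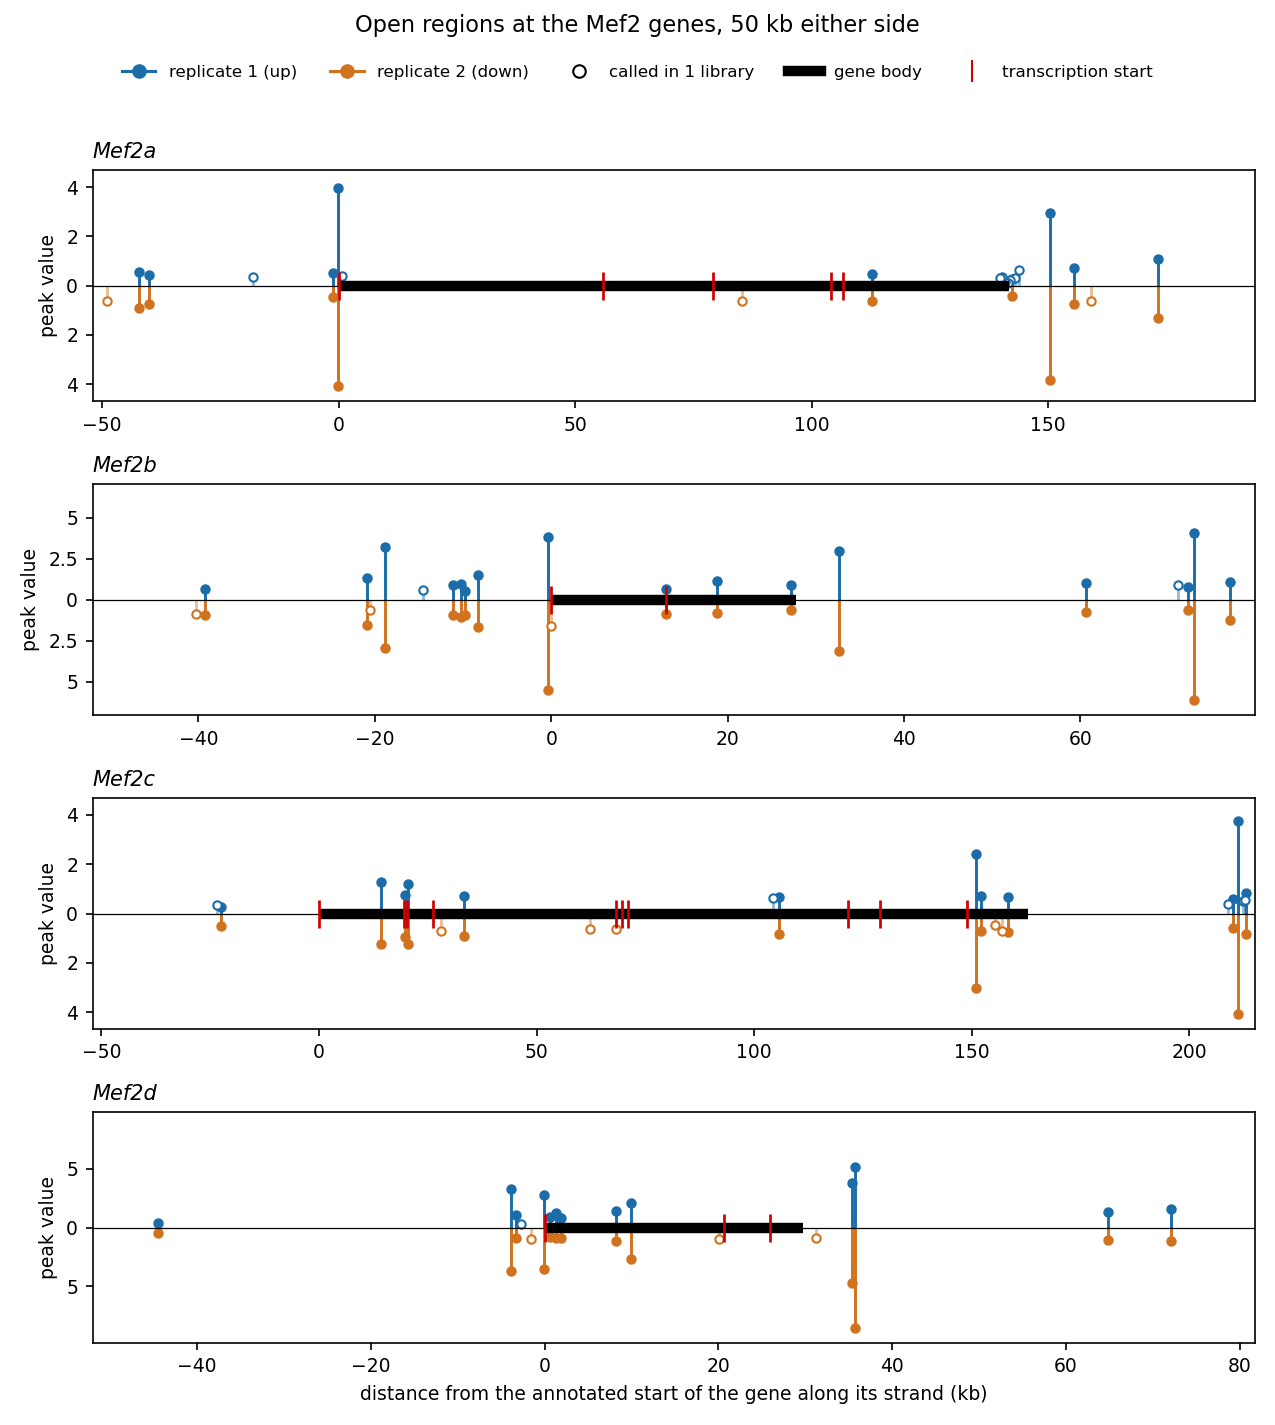
Open regions in each Mef2 gene and the 50 kb on either side, with distance from the annotated start along the gene's strand (x axis, kb) and peak value (y axis, normalised signal), replicate 1 upwards in blue and replicate 2 downwards in orange. Filled points are regions called in both libraries, open points regions called in 1, the black bar is the gene body and red ticks are start clusters. The highest region of the Mef2c window, 3.76 and 4.07, lies 48.1 kb past the end of the gene, while that of Mef2a, 3.96 and 4.07, lies at its start.

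Per 100 kb of window, Mef2b had 12.5 shared regions and Mef2d 10.02, at percentiles 97.2 and 92.7 of all protein-coding genes. Mef2c had 4.56 and Mef2a 3.72, at percentiles 58.7 and 48.6, near the genome median of 3.81. The windows differ in what else they hold. That of Mef2b contains 7 other coding genes (Borcs8, Hapln4, Ncan, Nr2c2ap, Rfxank, Slc25a42 and Tmem161a), and 5 of its 16 shared regions lay at promoters of other genes and 1 at the shared promoter. That of Mef2a contains Lysmd4, whose annotated span overlaps the body of Mef2a. That of Mef2d contains Iqgap3, and that of Mef2c contains no other coding gene.

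**Figure D3:**
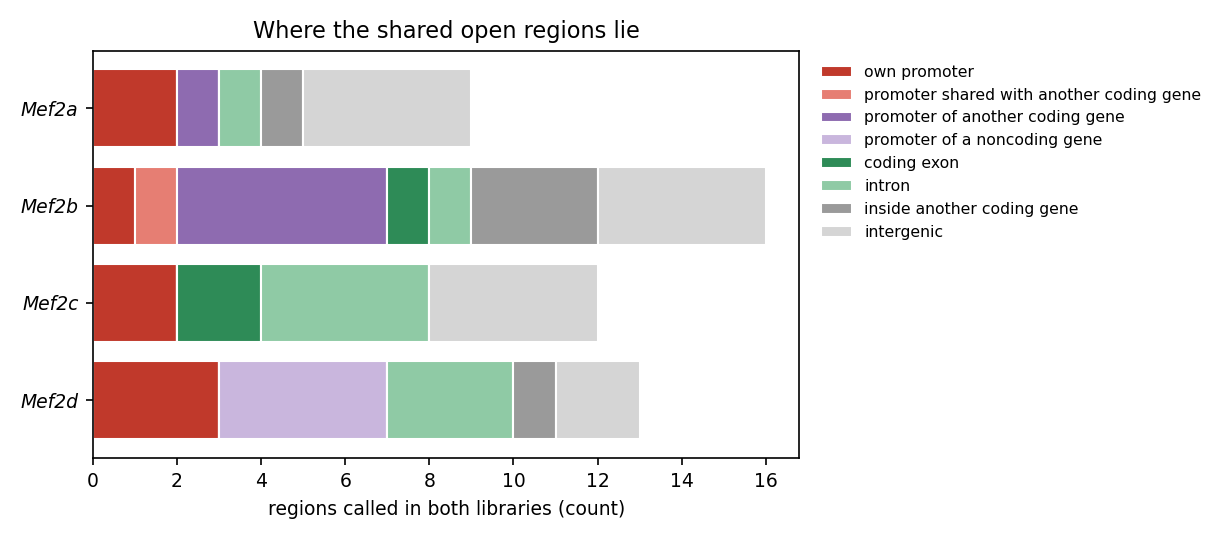
Number of regions called in both libraries in each Mef2 window (x axis), split by annotation class (colours). Mef2b has 5 regions at promoters of other coding genes, Mef2d has 4 at promoters of noncoding genes, and 10 of the 12 regions of Mef2c lie away from any promoter.

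Of the shared regions, 31 lay away from any annotated promoter, 10 of 12 at Mef2c, 6 of 9 at Mef2a, 9 of 16 at Mef2b and 6 of 13 at Mef2d. The same share over all shared regions of the genome was not computed, so no gene is called unusual in this. Mef2c had 8 of its 12 shared regions inside the gene, 1 upstream and 3 downstream, while Mef2a had 1 of 9 inside, 4 upstream and 4 downstream. The gene body made up 163 kb of the 263 kb window at Mef2c and 142 kb of 242 kb at Mef2a. Sides were set by the midpoint of a region, so the Mef2a promoter region, which covers the start, counts as upstream. Within the gene of Mef2c, 2 of the regions lay in coding exons, with values of 0.723 and 0.719 at 83656205-83656367 and of 0.684 and 0.754 at 83662141-83662560.

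The strongest region away from promoters was in the Mef2c window, 48.1 kb past the end of the gene in intergenic sequence (chr13:83715061-83715300). It had 3.76 in replicate 1 and 4.07 in replicate 2, a mean of 3.91 ± 0.218, which is above the Mef2c promoter in each library and at percentile 95.3 of all shared regions. The next in the Mef2c window, in an intron 151.0 kb into the gene (chr13:83654981-83655160), had 2.41 and 3.04, a mean of 2.73 ± 0.442. Another, in an intron 14.3 kb into the gene and upstream of its open promoter (chr13:83518041-83518620), had 1.27 and 1.25, close to the promoter values of 1.19 and 1.23. None of these was tested for an effect on Mef2c, and a region near a gene need not act on it.

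The first and second of these are printed as the highest of the Mef2c window, with footprints called in both libraries in capitals (plus strand, coordinates as given).
Mef2c 3′ intergenic region: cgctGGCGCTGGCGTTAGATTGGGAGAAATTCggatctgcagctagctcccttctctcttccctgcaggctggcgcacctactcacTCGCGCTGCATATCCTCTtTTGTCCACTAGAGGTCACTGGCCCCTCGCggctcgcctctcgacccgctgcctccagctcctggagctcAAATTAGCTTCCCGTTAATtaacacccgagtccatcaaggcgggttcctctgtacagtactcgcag
Mef2c intron region: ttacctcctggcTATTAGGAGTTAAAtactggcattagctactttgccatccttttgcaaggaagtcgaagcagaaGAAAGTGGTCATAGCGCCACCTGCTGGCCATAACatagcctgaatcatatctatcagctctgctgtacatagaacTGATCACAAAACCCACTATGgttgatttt

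The intergenic region carried 4 footprints and 16 CpG in 240 bases. Its first footprint held ATTGG, in the stretch called in replicate 1. In the intron region 1 of 3 footprints held the CTCF core motif, shown alone in capitals in the next line (chr13:83655057-83655090). CTCF is the factor that anchors chromatin loops and insulates domains. The core was found in 4.74% of all footprints called in both libraries and in 7.72% of shared regions read over their central 200 bp.
Mef2c intron footprint: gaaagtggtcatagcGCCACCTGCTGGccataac

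At Mef2d the strongest region away from promoters lay 3.9 kb upstream of the start (chr3:88138341-88138600), with 3.31 and 3.74, a mean of 3.52 ± 0.307. It was higher than the Mef2d promoter within each library (2.75 and 3.51), though its values overlapped those of the promoter between libraries. The next lay in an intron 9.9 kb into the gene (chr3:88152201-88152420), with 2.06 and 2.64, and the third 8.2 kb in, with 1.42 and 1.11. The upstream region and the intron region at 9.9 kb are printed with shared footprints in capitals (plus strand), the first as the strongest away from promoters and the second for its long footprint.
Mef2d upstream region: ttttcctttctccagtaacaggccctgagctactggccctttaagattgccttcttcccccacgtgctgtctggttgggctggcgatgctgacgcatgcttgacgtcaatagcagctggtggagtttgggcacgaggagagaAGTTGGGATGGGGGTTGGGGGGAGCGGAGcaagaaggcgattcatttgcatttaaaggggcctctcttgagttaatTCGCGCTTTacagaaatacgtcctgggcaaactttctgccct
Mef2d intron region: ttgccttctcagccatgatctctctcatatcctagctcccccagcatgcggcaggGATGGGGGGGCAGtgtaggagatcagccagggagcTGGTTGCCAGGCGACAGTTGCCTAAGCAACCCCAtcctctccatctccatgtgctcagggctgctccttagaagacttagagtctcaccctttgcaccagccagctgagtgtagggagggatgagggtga

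The upstream region contained tgacgtc, the letters of the cAMP response element (CRE), outside both shared footprints and under no footprint in either library. The CRE letters occurred in 2.01% of shared regions read over their central 200 bp and in 0.736% of shared footprints. The longer footprint of the intron region held GTTGCCA, the RFX motif, which was found in 0.847% of shared footprints. A footprint 113 kb from the start of Mef2a lay in an intron of that gene and also within the annotated span of Lysmd4. It held the same letters, here in capitals (minus strand, chr7:67260033-67260057).
Mef2a intron footprint: agcttcagcctggcatGTTGCCAga
Mef2d intron footprint: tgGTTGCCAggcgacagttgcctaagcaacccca

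The highest values of the Mef2d window lay past the gene, at the start of the noncoding gene 1700113A16Rik. They were 3.80 and 4.68 at 88177661-88177900 and 5.11 and 8.54 at 88178001-88178280. The noncoding gene Gm3764 had 1.32 and 1.10 at 88207101-88207370 and 1.57 and 1.18 at 88214281-88214563.

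At Mef2a the regions away from promoters were weak. The strongest, 31.6 kb past the end of the gene (chr7:67199501-67199700), had 1.09 and 1.33, followed by 0.723 and 0.737 at 67217198-67217360 and 0.554 and 0.896 at 67414914-67415140. The first held 1 footprint shared by the libraries, with the CTCF core in capitals in this line (minus strand, chr7:67199580-67199610).
Mef2a 3′ footprint: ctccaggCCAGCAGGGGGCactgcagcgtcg

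The highest region of the Mef2a window after its own promoter was that at the start of Lysmd4, 67222421-67222680, with 2.97 and 3.83. Around the 3′ end of Mef2a, from 67229081 to 67233220, 7 of the 9 regions seen in replicate 1 only lay in a row, with values of 0.113 to 0.627, and 1 region among them, 67230341-67230700, was called in both libraries with 0.283 and 0.417. At Mef2b the 3 strongest regions away from promoters were also modest. They had 1.31 and 1.55 at 70118761-70118980 inside Ncan, which encodes the brain proteoglycan neurocan, 1.09 and 1.22 at 70216581-70216840 and 0.972 and 1.07 at 70129364-70129640.

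**Figure D4:**
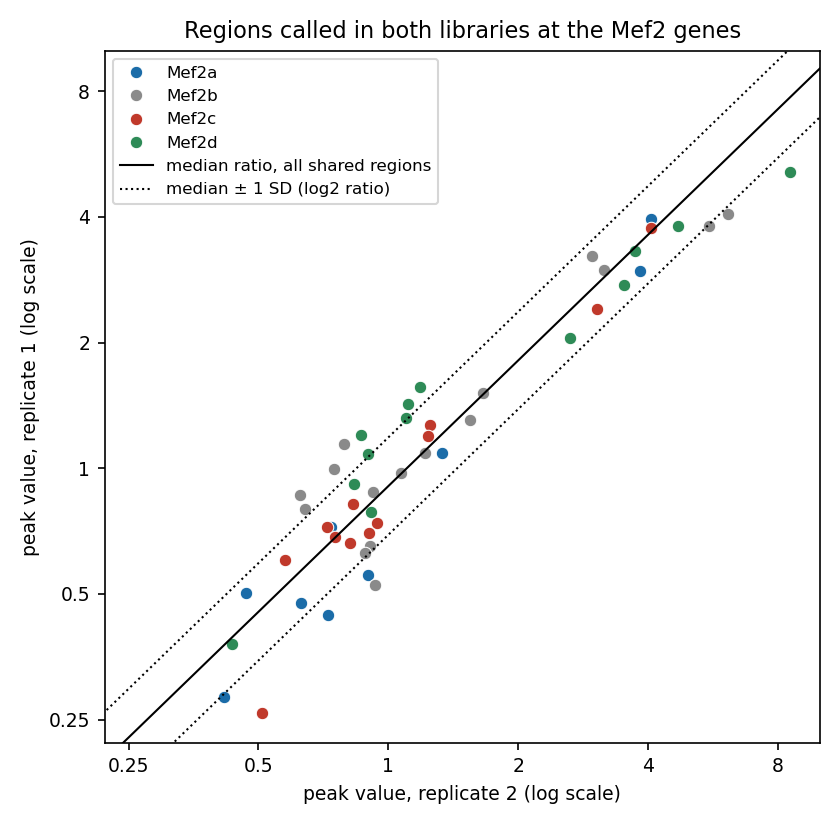
Peak values of the 50 regions called in both libraries at the Mef2 genes, replicate 1 (y axis) against replicate 2 (x axis), both on log scales. The solid line is the median ratio over all 58659 shared regions of the genome and the dotted lines lie 1 SD of the log2 ratio (0.39) on either side. The regions range in log2 ratio between -0.97 and 0.53, and none differs by more than 2-fold, a share not computed for the genome.

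Between libraries the 50 shared regions had an SD of 0.36 on the log2 scale of replicate 1 over replicate 2, against 0.39 for all shared regions of the genome. None of the 50 differed by more than 2-fold, but the share that did over the genome was not computed. Regions of a single library have no ratio and are left out. The median log2 ratio of the 50 shared regions was -0.15, against -0.14 for the genome, and replicate 2 was the higher in 35 of 50. Were 1 step of the values equal to 1 read, counting alone would give these regions a median SD of 0.157 in log2. The ratio of the Mef2b shared promoter was -0.54 on that scale, that of the Mef2d promoter -0.35, and those of Mef2a and Mef2c -0.04 and -0.05.

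Footprints in the windows numbered 36 and 26 at Mef2a, 57 and 54 at Mef2b, 48 and 54 at Mef2c and 45 and 43 at Mef2d in replicates 1 and 2. Footprints called in both libraries numbered 14, 27, 16 and 18, or 75 in all. As a share of merged footprints this was 29.8% at Mef2a, 33.3% at Mef2b, 18.6% at Mef2c and 27.3% at Mef2d, and 28.6% over the genome. All 75 overlapped a called region, 72 of them lying wholly within it and 3 crossing its edge. The same share over all shared footprints of the genome was not computed, so this is not called a trait of the 75. Their median width was 20 bp, against 19 bp for all 86677. These are widths of joined calls, while the footprints of each single library had a median width of 9 bp over the genome. A capital base or a motif match in a shared footprint can therefore lie in the call of 1 library only. Of the 50 shared regions 42 had a footprint in both libraries, where 84.6% of all shared regions did, and 1, the weak region upstream of Mef2a, had none in either.

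Of the 75 shared footprints, 25 held at least 1 of the 16 motifs searched, where 25.9% of all shared footprints did. The SP/KLF letters were in 13 of the 75 and in 11.9% of all shared footprints, and the NRF1 letters in 6 and in 2.06% of all. ATTGG was in 3, against 2.17% of all. The ETS letters CCGGAAG, the RFX letters and the CTCF core were in 2 each, against 0.793%, 0.847% and 4.74% of all. EGR and NFI letters were in 1 each, against 2.46% and 1.51% of all. With so few matches at the genes, no motif is called particular to them. All 6 footprints with NRF1 letters lay at promoters, namely those of Mef2a, Ncan, the shared Mef2b promoter with 2, Tmem161a and 1700113A16Rik. How many of all shared footprints with these letters lie at promoters was not computed. By window, matches were present in 8 of 14 footprints at Mef2a, 10 of 27 at Mef2b, 2 of 16 at Mef2c and 5 of 18 at Mef2d. These windows include promoters of neighbouring genes. Of all shared footprints in them, with or without a match, 7, 5, 3 and 3 in that order lay at an own or shared promoter of the Mef2 gene.

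The element that MEF2 proteins themselves bind was in 0 of the 50 shared regions at the Mef2 genes when each was read over its central 200 bp, against 1.78% of all shared regions. It was in 1 of the 6 RefSeq promoter entries of the Mef2 genes, against 3.19% of all entries. Read over their full length, the MEF2 consensus occurred 3 times in the 81 open regions on either strand, once in a region called in both libraries, and 0 times under a footprint of either library. No shared footprint at the genes held it, and over the genome 12 of 86677 did (0.0138%), or 38 (0.0438%) with 5 bases added at each end. One match spanned the start of Mef2a, from 2 bases before to 7 bases after it (minus strand, chr7:67372841-67372870). Another lay 1.6 kb upstream of Mef2d in a region called in replicate 2 only, with a value of 0.942 (plus strand, chr3:88140783-88140812). They are shown because they would be sites of the family at its own genes if bound, which these data do not show. Capitals mark the match.
Mef2a start: ggcctgactcCTAAAAATAGccccggtgtg
Mef2d upstream: tggggaagcaCTAAAAATAGaggccacaag

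Capitals in both lines spell the same 10 letters. The third match, in an exon at the 3′ end of Mef2a, was in a region of replicate 1 only with a value of 0.158.

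**Figure D5:**
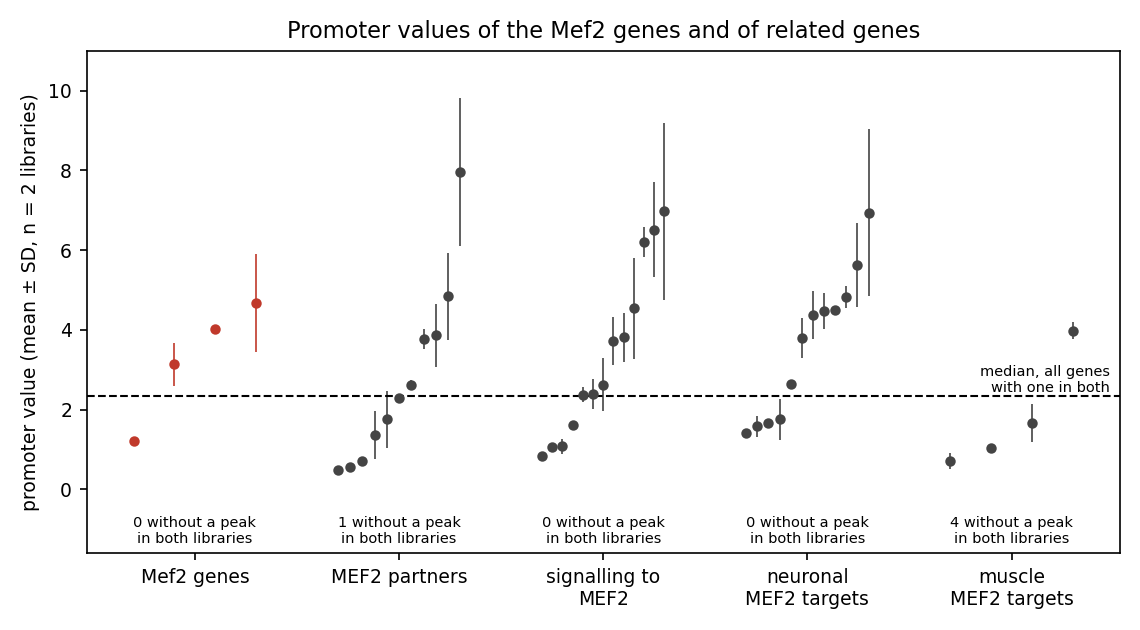
Promoter values (y axis, mean ± SD of 2 libraries) of the 4 Mef2 genes in red and of genes of related lists in grey, each list in order of value. The dashed line, at 2.34, is the median of all genes with such a peak in each library. Neuronal targets had a median of 4.09 and muscle targets with a peak one of 1.35, with 4 of 8 muscle targets lacking a peak.

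Genes whose products act with MEF2 proteins or lie in their pathway were counted in the same way, beside the 61.5% of all protein-coding genes. Of 12 partners and regulators of MEF2, 11 were called at the promoter in both libraries, with a median value of 2.30. The highest were Hdac4, a class IIa histone deacetylase gene, at 6.65 and 9.27 (7.96 ± 1.85), and Cabin1, a calcineurin-binding repressor gene, at 4.07 and 5.61 (4.84 ± 1.08). Myocd, the gene of the smooth and cardiac muscle coactivator myocardin, had a peak in replicate 2 only, with 0.531. All 13 genes of signalling to MEF2 had one, led by the neuronal kinase gene Cdk5 at 5.40 and 8.54 (6.97 ± 2.22) and the p38 kinase gene Mapk14 at 5.67 and 7.37 (6.52 ± 1.20). The only other MADS-box gene of the lists, Srf, had 3.76 and 5.05 (4.41 ± 0.916).

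Targets known from neurons and from muscle were counted apart. All 12 neuronal MEF2 targets were called at the promoter in both libraries, with a median of 4.09, led by the immediate early gene Jun at 5.45 and 8.42 (6.93 ± 2.10) and the protocadherin gene Pcdh10 at 4.88 and 6.37 (5.63 ± 1.05). Of 8 targets of striated muscle, 4 had one, the highest being the M-band gene Myom1 at 3.84 and 4.13 (3.98 ± 0.206) and the muscle creatine kinase gene Ckm at 1.99 and 1.32 (1.66 ± 0.474). Cardiac actin (Actc1), myogenin (Myog), atrial natriuretic peptide (Nppa) and cardiac troponin T (Tnnt2) had none in either library. The lists are short and were chosen with earlier results of these data known, so the counts describe their genes only.

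Likeness was measured over the 13489 genes called at the promoter in both libraries, as the distance over 4 standardised measures, the log2 promoter value and the log2 of 1 plus the number of peaks in the window, each in 2 libraries. The 3 genes nearest to Mef2a were Mapkbp1, Fmn1 and Rbm8a (distances 0.139 to 0.167), those nearest to Mef2b were Sufu, Ppfia3 and Midn (0.172 to 0.203), those nearest to Mef2c were Atp1b2, Zfp710 and Poc1b (0.105 to 0.197), and those nearest to Mef2d were Med25, Clta and Ano6 (0.0723 to 0.132). No member was among another's nearest. Mef2b and Mef2d were the closest pair of members at 0.960, and Mef2b and Mef2c the farthest at 2.65.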

How the data were processed

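DNase-seq peaks, footprints and cut-rate tables of 2 libraries of 1 group were used as the authors deposited them. All were made per library on mm10, per the deposited text files; the aligner, callers and depth were not stated in those sources. The peak value is the authors' read-depth normalised signal on a scale that is not stated, in whole multiples (100% within 0.1 of a step) of 0.00565 in replicate 1 and 0.00571 in replicate 2. The deposited cut-rate table gives a false discovery rate (q-value) per position, listed up to 0.05. Each library has 2 deposited peak lists, and the longer was used. The authors' footprint lists carry only the constant 0.01, read as a threshold.

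Genes and starts came from GENCODE vM21 on GRCm38.p6. Regions merged overlapping peaks of the libraries, and shared ones and footprints needed 1 bp of overlap. RefSeq promoter entries of the same build matched all 4 genes, in 6 entries. Motifs were read on both strands from the reference. Scans were tested on simulated data. Python 3.11.15, pandas 2.3.3, numpy 2.4.6 and matplotlib 3.10.9 were used. The named items were, by rule, the 4 genes, their shared promoter peaks, the 3 strongest shared regions away from promoters, footprints with the MEF2 consensus, the 3 most alike genes, and of each list the 2 highest genes and those without a peak in both libraries; other regions and footprints, such as those with CRE, RFX or CTCF letters, were chosen after their values were seen. The members and lists were chosen with earlier results of these data known. Alternatives covered the stricter list, windows, start sets, overlap and single libraries.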

Additional observations from a re-analysis of the deposited data

How the results depend on the processing

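Of 78 alternatives 10 of a single library could not change the result by construction, namely 8 promoter values and 2 gene counts. Of the other 68, 46 kept the value within the spread between libraries or the count within 1.5 times, and 22 did not. Among those 46, the gene count with 2.5 kb on either side of a start could not change either, since all 4 genes had a peak within 1 kb. The number of Mef2 genes called at the promoter in both libraries was 4 under the alternatives run except that with the annotated 5′ end alone, where it was 3, since Mef2c had no peak there and no promoter value could be given. With promoters of 2.5 kb on either side the Mef2c value was 2.73, that of the intron region 151.0 kb into the gene, 2093 bp from its last start cluster, against 1.21. Shared regions merged from the stricter lists numbered 4 at Mef2a, 10 at Mef2b, 4 at Mef2c and 7 at Mef2d, against 9, 16, 12 and 13. With an overlap of 50% of each peak Mef2a had 5. With 10 kb on either side Mef2a had 5 and Mef2b 7, and with 100 kb Mef2a had 14, Mef2c 21 and Mef2d 23. Footprints with 10 kb on either side numbered 12 at Mef2b, against 27. Where both calls had to overlap a peak of their own library, shared footprints numbered 11, 26, 13 and 16 in order from Mef2a to Mef2d, against 14, 27, 16 and 18. Calls of a single library, without the other replicate, numbered 12 to 18 regions at Mef2a, 18 to 22 at Mef2b, 18 to 19 at Mef2c and 14 to 18 at Mef2d, and 26 to 36, 54 to 57, 48 to 54 and 43 to 45 footprints, which is larger by construction since no second library is required. No paired analysis was possible because there was 1 group and no contrast. Depth, which is not given in the sources used here, limits which weak regions and footprints were called.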
